A study of Caenorhabditis elegans with 2 samples.

Results

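The cytoplasmic ribosomal protein genes of Caenorhabditis elegans were described here by the EOR-1 peaks found near their starts. The set holds 80 of the 19973 protein-coding genes of Ensembl release 115. It was chosen by name: every gene named rpl or rps with a number, plus rla-0, rla-1, rla-2 and ubl-1. A gene had a candidate when a peak of the pooled list had its summit within 1000 bp of an annotated start of that gene. The set was proposed because of its pooled peaks, so the pooled positions and ranks below are a description and carry no test.

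EOR-1 was measured by chromatin immunoprecipitation and sequencing in whole L3 larvae of both sexes. Both biological replicates came from strain OP81 (unc-119(ed3) III; wgIs81), in which the insertion wgIs81 concerns eor-1. The place of the insertion, and whether it restores unc-119 function, are not given here. By the labels the protein precipitated was eGFP-eor-1 and the antibody was listed as eor-1, so the values concern a tagged protein, and all larvae carried the ed3 mutation of unc-119. There was a single group, and no untreated, wild-type or untagged group was analysed here. The list of replicate 1 held 2488 peaks, that of replicate 2 held 2610, the pooled list 6708, and the list left after thresholding by the irreproducible discovery rate (IDR, a measure of how well peak ranks hold between replicates) 33. The first 3 lists hold background entries besides peaks, so an entry is called a candidate. Whole larvae mix many tissues, and a weak peak in all cells cannot be told apart from a strong one in few cells.

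Ribosomal proteins join the ribosomal RNAs to form the large and the small subunit of the ribosome. Their genes are among the most highly transcribed of growing animals and are expressed in all tissues, with the proteins made in matched amounts. The names follow the subunit: rpl stands for large subunit proteins and rps for small subunit proteins. The 3 rla genes encode the stalk that recruits translation factors. ubl-1 encodes a small subunit protein made as a fusion with a ubiquitin-like protein. EOR-1 is a BTB-domain transcription factor with zinc fingers whose human relative is PLZF. It is known in worms as a partner of EOR-2 in the Ras and Wnt pathways. Many worm messages are trans-spliced, so an annotated start can be the splice site and not the place where transcription begins.

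The sequences under 5 of the candidates are printed as examples, and they are richer in the marked letters than most peaks of the set. Each is 151 bases centred on the pooled summit, read 5′ to 3′ on the strand of the gene, from the WBcel235 genome (build ce11). rps-1 had one of the strongest peaks, and rpl-20 a strong peak with none of the marked letters. rpl-15, rpl-6 and rpl-21 hold several of the recurring words described further on. Of the 56 distinct strongest peaks of the set, 28 held none of these words within 100 bp of the summit, and 10 held 2. Capitals mark GAGAGA and AGACGCAG, the letters searched as fixed motifs, and the words GCGAGACC, ACCGTAGT and GGCCTAAA, all on either strand. The reverse complements are TCTCTC, CTGCGTCT, GGTCTCGC, ACTACGGT and TTTAGGCC.
rps-1, chrIII:4475563-4475713, strand +: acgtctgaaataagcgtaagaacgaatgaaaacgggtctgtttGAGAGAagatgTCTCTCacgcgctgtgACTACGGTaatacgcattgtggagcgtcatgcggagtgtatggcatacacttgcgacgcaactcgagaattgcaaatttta
rpl-20, chrIV:4750001-4750151, strand -: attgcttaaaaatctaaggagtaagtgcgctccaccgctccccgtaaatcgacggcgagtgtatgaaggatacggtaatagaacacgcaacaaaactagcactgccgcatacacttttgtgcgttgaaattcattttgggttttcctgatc
rpl-15, chrIV:654841-654991, strand -: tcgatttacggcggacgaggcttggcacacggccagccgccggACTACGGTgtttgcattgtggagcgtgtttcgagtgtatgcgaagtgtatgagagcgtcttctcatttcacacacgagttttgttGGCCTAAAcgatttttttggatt
rpl-6, chrIII:7207995-7208145, strand +: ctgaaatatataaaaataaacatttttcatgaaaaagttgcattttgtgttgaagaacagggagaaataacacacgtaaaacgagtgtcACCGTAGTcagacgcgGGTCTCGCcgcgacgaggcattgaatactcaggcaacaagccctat
rpl-21, chrIII:8130476-8130626, strand -: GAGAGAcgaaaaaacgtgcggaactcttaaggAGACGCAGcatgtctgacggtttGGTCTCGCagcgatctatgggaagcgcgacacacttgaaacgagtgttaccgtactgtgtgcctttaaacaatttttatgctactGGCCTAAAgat

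The rps-1 window holds GAGAGA on both strands beside ACCGTAGT on the reverse strand. rpl-15 and rpl-6 carry 2 words each and no GAGAGA. The rpl-21 window carries GAGAGA, AGACGCAG, GCGAGACC and GGCCTAAA, although its peak ranked only 1430. A match to these letters is a description of the sequence and not a binding site.

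Most ribosomal protein genes had a candidate. It was found at 59 of the 80 ribosomal protein genes (73.8%), against 18.1% of all protein-coding genes. One of the 1000 strongest pooled peaks lay at 30 of them (37.5%), against 3.95% of all genes. At 20 of them (25%) a candidate had a summit within 200 bp in the lists of both replicates, against 2.09% of all genes. The best rank of the 59 had a median of 909 and a range of 24 to 6685, against a median of 2721 over all genes with a candidate. The rule used these pooled values, so nothing is read from the difference.

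**Figure D1:**
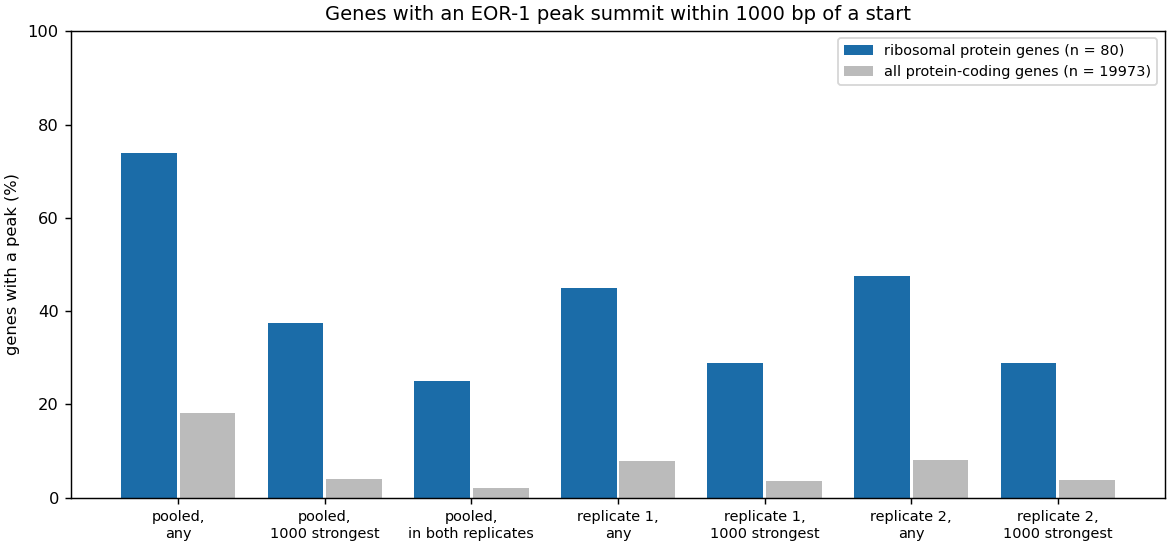
Share of ribosomal protein genes (blue, left bar of each pair, n = 80) and of all protein-coding genes (grey, n = 19973) with a peak summit within 1000 bp of a start, in percent. In each of the 7 pairs the blue bar is the taller one, from 73.8% against 18.1% for any pooled candidate to 25% against 2.09% for candidates found in both replicates.

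The lists of the single replicates gave the same picture, but they share their reads with the pooled list and are no independent check of it. In the list of replicate 1, 36 ribosomal protein genes (45.0%) had a peak, against 7.89% of all genes. There 23 (28.8%) had one of the 1000 strongest, against 3.58%. In the list of replicate 2, 38 (47.5%) had a peak, against 8.1% of all genes, and 23 (28.8%) had one of the 1000 strongest, against 3.77%. A peak was found at 21 ribosomal protein genes in both lists and at 53 in at least 1 of them. The share was close to equal in the replicates, while the genes with a peak were partly different ones. No such overlap over all genes is given here, so it is not read as particular to the set.

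Worm genes lie close together, and a peak between 2 genes counts for both under the rule. The 59 genes had 56 distinct strongest peaks, and 3 of these peaks were the strongest of 2 ribosomal protein genes at once. The own start was the nearest one to the strongest peak for 30 of the 59 genes, and another protein-coding gene's start was nearer for 29. Among the 3559 other genes with a candidate, the own start was the nearest for 2880, a larger part than in the set. When a peak counted only for the gene with the nearest start, 33 ribosomal protein genes (41.2%) had a candidate, against 14.9% of all genes. One of the 1000 strongest then lay at 17 (21.2%), against 2.95%, and a candidate of both replicates at 11 (13.8%), against 1.54%. Nearness thus changed the counts by more than 1.5 times, and which gene of a pair a peak belongs to cannot be told from a peak list.

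Large and small subunit genes had candidates at similar shares. Genes were placed by name, so rpl-24.2, the homologue of a yeast assembly factor, counts among the large subunit genes. Of 45 large subunit genes, 35 had a candidate (77.8%), 21 one of the 1000 strongest (46.7%) and 13 a candidate of both replicates (28.9%). Of 31 small subunit genes the counts were 23 (74.2%), 9 (29.0%) and 7 (22.6%). The median best rank was 769 for the large and 1344 for the small subunit genes, with ranges of 27 to 6685 and 24 to 6567. The ranges cover almost the same span. The 3 stalk genes rla-0, rla-1 and rla-2 had no candidate, and their nearest pooled summits lay 2772, 7550 and 2299 bp away. The candidate of ubl-1, 198 bp upstream of its start, had rank 2161 and a signal of 3.89, with no summit in either replicate list.

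The strongest peaks of the set were at rps-19 and rpl-3, the 2 ribosomal protein genes in the thresholded list. Signal values are those the authors deposited, and they order the peaks of 1 list without being comparable between lists. rps-19 encodes a small subunit protein whose human homologue is mutated in Diamond-Blackfan anaemia. Its peak (chromosome I, 9625878 to 9626281, ce11, between genes) had a pooled signal of 21.4 and rank 24, with rank 135 and signal 7.62 in replicate 1 and rank 23 and signal 10.99 in replicate 2. The summit was 284 bp upstream of rps-19, and 161 bp from the start of hsr-9, which faces away from it. rpl-3 encodes a large subunit protein that reaches towards the peptidyl transferase centre. Its peak (chromosome III, 3867409 to 3867812, between genes) had a signal of 20.68 and rank 27, and ranked 92 (signal 8.54) in replicate 1 and 26 (signal 10.88) in replicate 2. Its summit was 243 bp upstream, and no other gene's start was nearer. Both peaks were high in both replicates, and rpl-3 was the only one of the set among the 100 strongest in each.

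The next peaks were each found in 1 replicate list only. rps-1, a small subunit gene, had the pooled rank 43 and a signal of 18.49 (chromosome III, 4475436 to 4475839, summit 280 bp upstream). It ranked 58 with a signal of 8.47 in replicate 2 and had no summit within 200 bp in replicate 1. rpl-20, a large subunit gene, had the pooled rank 66 and a signal of 16.3 (chromosome IV, 4749874 to 4750277, summit 298 bp upstream). It ranked 17 with a signal of 15.22 in replicate 1 and had no summit in replicate 2. A high pooled rank in this set could therefore come with support from a single list.

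Below these, rps-12 (rank 103, signal 14.34, 168 bp upstream) and rpl-32 (rank 109, signal 14.01, 387 bp upstream) had summits in both lists. rps-12 ranked 70 in replicate 1 (signal 9.46) and 330 in replicate 2 (signal 4.85). rpl-32 ranked 60 in replicate 1 (signal 10.32) and 630 in replicate 2 (signal 3.84). Both stood higher in replicate 1. rpl-15 (rank 164, signal 12.21, chromosome IV, 654714 to 655117, 340 bp upstream) ranked 622 in replicate 1 (signal 4.23) and 467 in replicate 2 (signal 4.28). Neither replicate list placed it as high as the pooled list did. rpl-11.2 (rank 166, signal 12.17, X chromosome, 2242783 to 2243186, 367 bp upstream) ranked 97 in replicate 1 only. rpl-5 (rank 361, signal 9.29, 299 bp upstream) likewise ranked 87 in replicate 1 only. The proteins of rpl-11.2 and rpl-5 bind the 5S ribosomal RNA together.

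Peaks shared by 2 ribosomal protein genes came next. rpl-41.1 and rpl-41.2, which encode a very small large subunit protein, lie in tandem, and their common peak (rank 184, signal 11.76) was 330 bp upstream of rpl-41.2 and 772 bp downstream of the rpl-41.1 start. It ranked 133 in replicate 1 and 1057 in replicate 2. rpl-24.1 and rps-10 are transcribed away from each other, and their peak (rank 230, signal 11.02) lay 179 bp upstream of rpl-24.1 and 431 bp upstream of rps-10. It ranked 500 in replicate 1 and 2031 in replicate 2. In both cases replicate 1 gave the higher place. The third shared peak was at the divergent pair rpl-39 and rps-30 (rank 909, signal 6.18), 214 bp upstream of rpl-39 and 285 bp upstream of rps-30. rps-30 encodes a small subunit protein fused to a ubiquitin-like protein. That peak ranked 509 in replicate 2 and had no summit in replicate 1. It was also the last of the set inside rank 1000. The first outside was rpl-22, with rank 1038, a signal of 5.78 and rank 238 in replicate 2 only, so the signal hardly changed across the limit.

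Among the remaining peaks of the 1000 strongest, 8 genes had summits in both lists. rps-0, whose human homologue is also known as the laminin receptor, ranked 232 in the pooled list, 1344 in replicate 1 and 1210 in replicate 2. rpl-27 ranked 243 (621 and 397), with the summit 693 bp downstream of its start and 85 bp from that of egl-30. rps-22 ranked 257 (517 and 975), and polh-1 had the nearer start. rpl-23, whose protein lies at the interface between the subunits, ranked 293 (677 and 254). The other 4 were rps-28 (307, with 300 and 943), rpl-1 (440, with 1064 and 77), rpl-17 (613, with 727 and 833) and rpl-18 (769, with 1388 and 2090). The protein of rpl-1 forms the mobile L1 stalk and that of rpl-17 lines the exit tunnel. Of these 8, only rpl-1 reached the 100 strongest of a replicate.

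The other genes of the 1000 strongest had support in at most 1 list. rpl-43 (rank 388, 659 in replicate 1), rpl-6 (618, 308 in replicate 1), rps-20 (881, 1350 in replicate 1) and rpl-4 (900, 262 in replicate 1) were found in replicate 1. rpl-35 (rank 235, 111 in replicate 2) and rpl-12 (586, 2160 in replicate 2) were found in replicate 2. The protein of rpl-12 forms the base of the stalk, and its summit, 6 bp downstream of the start in the 5′ UTR, was the only strongest summit of a gene of the set closer than 150 bp to the start. rpl-24.2, the homologue of the yeast assembly factor Rlp24, had rank 908 and a summit in an intron, 150 bp upstream of the nearest start of the gene, and was in neither list.

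**Figure D2:**
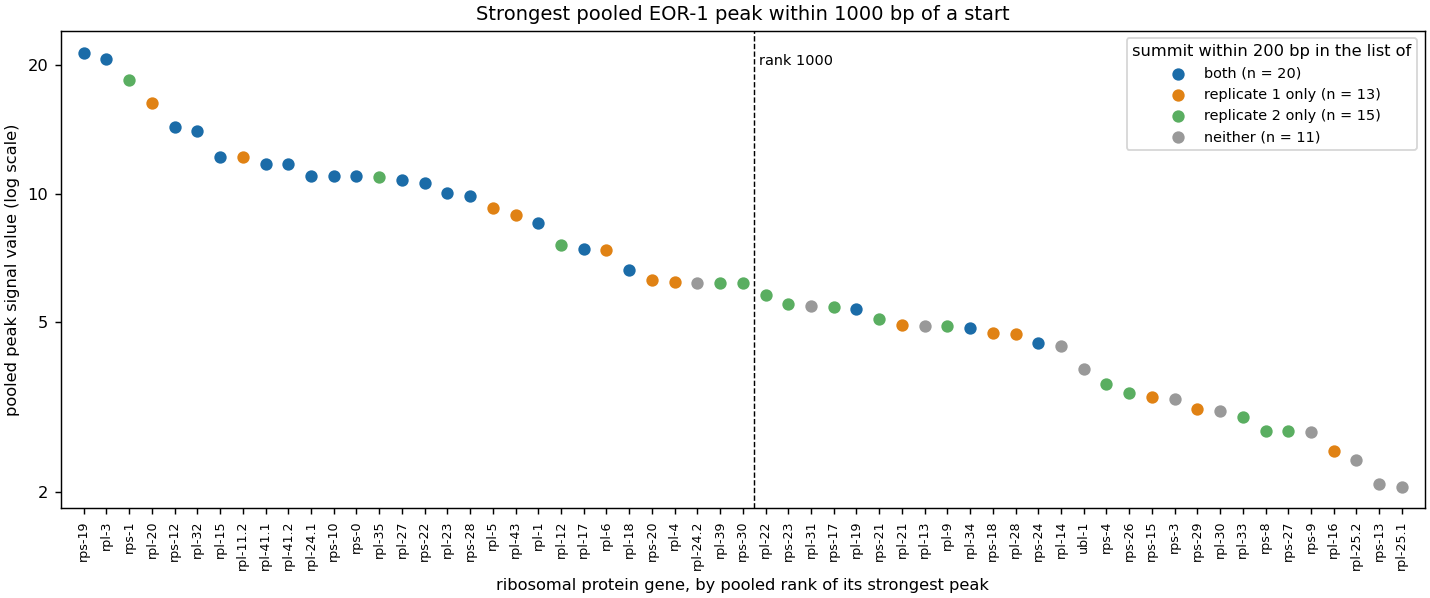
Pooled signal value (log scale) of the strongest candidate of each of the 59 ribosomal protein genes, in order of pooled rank, coloured by the replicate lists that hold a summit within 200 bp. Signal runs from 21.4 at rps-19 to 2.06 at rpl-25.1, and the dashed line after rps-30 marks rank 1000. Blue points (both lists) crowd the left side, and grey points (neither list) the right.

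Support thinned out with rank. Of the 59 genes, 20 had a summit in both lists, 13 in replicate 1 only, 15 in replicate 2 only and 11 in neither. Beyond rank 1000 there were 29 genes, and only rpl-19 (rank 1228), rpl-34 (rank 1476) and rps-24 (rank 1738) were found in both lists. rps-24 ranked 2316 in replicate 1 and 210 in replicate 2. The pooled list uses the reads of both replicates, so support by rank is partly built in. Over distinct peaks, 15 of the 27 ribosomal protein gene peaks of the 1000 strongest were in both lists (55.6%, exact interval 35.3 to 74.5), against 255 of 608 other promoter peaks (41.9%, 37.98 to 45.98). Other promoter peaks are all pooled peaks that lay within the same reach of another protein-coding gene and of no ribosomal protein gene. These intervals overlap. Beyond rank 1000 the counts were 3 of 29 (10.3%, 2.19 to 27.4) and 54 of 2926 (1.85%, 1.39 to 2.40). There the intervals overlap only from 2.19 to 2.40. Overlap of intervals is not a test, and the differences were not tested.

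Where both lists held a summit, its position and rank could be compared. A summit had to lie within 200 bp to count as held, so the shifts are bounded by that rule, and a limit of 100 bp gave 15 genes in place of 20. The summit of replicate 1 lay a median of 30.5 bp from the pooled one (largest 182), and that of replicate 2 a median of 28 bp (largest 185). The median rank was 569 in replicate 1 and 888 in replicate 2. Of the 20 genes, 12 ranked higher in replicate 1 and 8 in replicate 2. These genes hold only 18 distinct peaks. The peak of rpl-41.1 with rpl-41.2 and that of rpl-24.1 with rps-10 each count for 2 genes. Both of these peaks ranked higher in replicate 1, so the medians and the split count them more than once. With 2 replicates and no read counts, the precision of a single rank cannot be given.

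**Figure D3:**
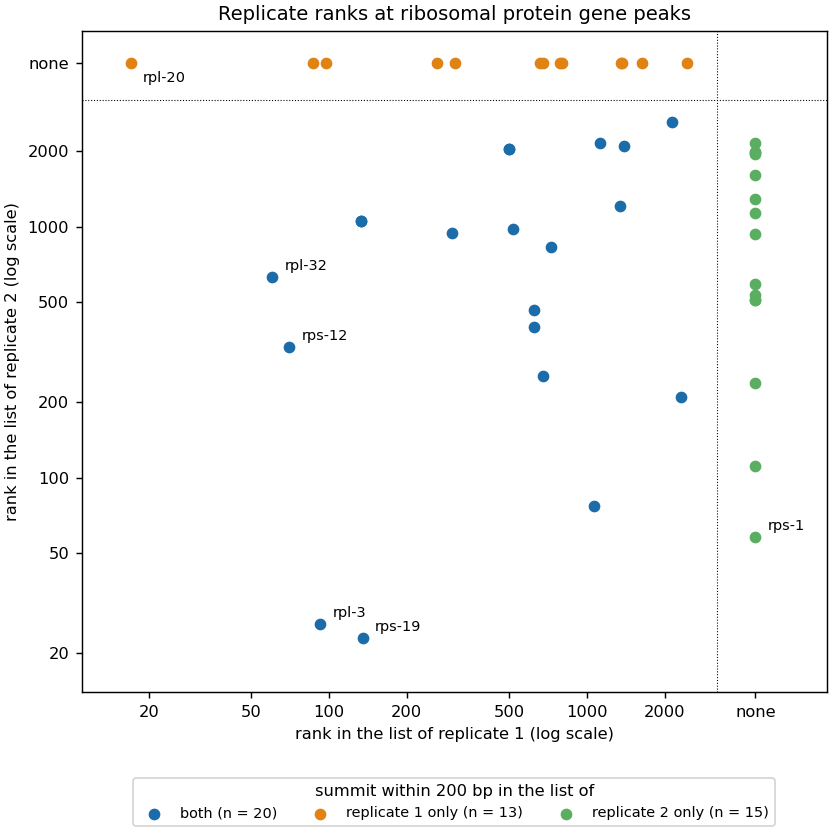
Rank in the list of replicate 1 (x axis, log scale) and of replicate 2 (y axis, log scale) of the strongest candidate of each ribosomal protein gene found in at least 1 list; points beyond the dotted lines were not found in that list. rpl-3 and rps-19 sit alone near the lower left corner, and rpl-20 and rps-1 lie on the margins with ranks of 17 and 58. Genes that share a peak share a point.

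The strongest candidate of most ribosomal protein genes lay some way upstream of the start. The distances here are those of the strongest candidate of each gene. The summit was upstream of the nearest start of the gene for 53 of the 59 ribosomal protein genes (89.8%) and for 72.2% of the 3559 other genes with a candidate. The median position was -289 bp (negative is upstream) for ribosomal protein genes, with quartiles of -391 and -211.5, and -182 bp for other genes, with quartiles of -443 and 32. Between the quartiles lay 179.5 bp for ribosomal protein genes and 475 bp for the others. In the band from 150 to 450 bp upstream lay 45 (76.3%) of the ribosomal protein gene summits and 29.2% of the others. Within 150 bp of the start lay 1 (1.69%) and 26.7%. Counting every candidate of a gene, 4 ribosomal protein genes (6.78%) and 30.3% of the others had one that close. The 4 were rpl-41.1 at 1 bp, rpl-12 at 6 bp, rpl-16 at 7 bp and rpl-5 at 78 bp. The band was chosen after the values were seen.

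A like distance was seen among strong peaks and among peaks with no nearer gene. For the 1000 strongest, the median was -292 bp for 30 ribosomal protein genes and -220 bp for 758 others, with 83.3% and 38.3% in the band. Where the own start was the nearest, the median was -264.5 bp for 30 ribosomal protein genes and -127 bp for 2880 others, with 86.7% and 27.5% in the band. At the 26 mitochondrial ribosomal protein genes with a candidate, the median was -193.5 bp and 34.6% were in the band. No test of these differences was made. Whether trans-splicing at the annotated starts goes with these distances was not tested.

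**Figure D4:**
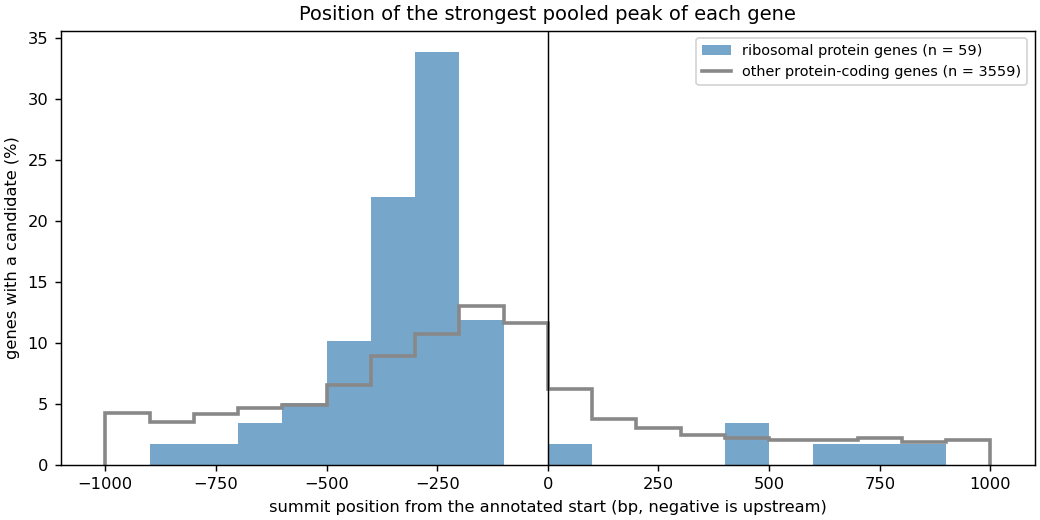
Position of the strongest pooled summit from the annotated start, in bins of 100 bp, as a percent of the genes with a candidate (blue bars, 59 ribosomal protein genes; grey line, 3559 other genes). The blue bars peak between 300 and 200 bp upstream with 33.9% and leave the last 100 bp before the start empty, where the grey line is near its highest.

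Most summits of the set lay between genes. Of the 59 genes, 50 had an intergenic summit, 5 an intronic one, 2 one in a coding exon and 2 one in a 5′ UTR. No such counts over other genes are given here, so these are not read as particular to the set. The genes with a divergent neighbour upstream, at any distance, were the largest class. In it, 42 of 54 ribosomal protein genes had a candidate (77.8%), against 22.2% of all genes so placed, and 22 (40.7%) had one of the 1000 strongest, against 5.61%. With an upstream neighbour on the same strand at 500 bp or more, 12 of 17 had a candidate (70.6% against 14.3%) and 7 one of the 1000 strongest (41.2% against 2.49%). With a same-strand neighbour closer than 500 bp, as is common in operons, 5 of 9 had a candidate (55.6% against 15.2%) and 1 one of the 1000 strongest (11.1% against 2.56%). Candidates were thus found with and without a divergent neighbour. By chromosome, the genes with a candidate were 20 of 25 on I (against 21.8% of all genes there), 6 of 9 on II (16.3%), 16 of 19 on III (23.6%), 11 of 17 on IV (17.2%), 4 of 8 on V (13.3%) and 2 of 2 on X (21.1%).

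The 21 ribosomal protein genes with no candidate came from both subunits and the stalk. They were rpl-2, rpl-7, rpl-10, rpl-11.1, rpl-26, rpl-29, rpl-36, rpl-37, rpl-38, rpl-42, rps-2, rps-5, rps-6, rps-7, rps-11, rps-14, rps-16, rps-25, rla-0, rla-1 and rla-2. rps-6 encodes the protein phosphorylated by S6 kinase, and its nearest pooled summit was 42945 bp away. Just outside the limit of 1000 bp was rpl-42, with a summit at 1490 bp, and the furthest nearest summits inside it were those of rpl-43 at 733 bp and rpl-27 at 693 bp. Peak lists give no depth, so the absence of a candidate does not show that EOR-1 was absent.

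rpl-41.1 and rpl-41.2 share 1 peak and so 1 rank, and the other numbered paralogs shared no strongest peak with each other. rpl-11.2 ranked 166 and rpl-11.1 had no candidate, with the nearest summit 1945 bp away. rpl-24.1 ranked 230 and rpl-24.2, with a different role, 908. rpl-25.2 ranked 5476 and rpl-25.1 6685, with signals of 2.38 and 2.06, and both were in neither replicate list. Peaks at near-identical copies are uncertain, because the handling of reads that match several places is unknown here.

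GAGA-type letters were counted under the peaks of the set and under other promoter peaks. Exact GAGAGA within 100 bp of the summit, on either strand, was found in 11 of 56 ribosomal protein gene peaks (19.6%, exact interval 10.2 to 32.4), against 26.1% of 3534 other promoter peaks (24.7 to 27.6). Among the 1000 strongest the counts were 5 of 27 (18.5%, 6.30 to 38.1) and 260 of 608 (42.8%, 38.8 to 46.8). These last intervals do not overlap, and the difference itself was not tested. By rank class the peaks were fewer and the intervals wider, and at ranks 1 to 250 they overlap (9.09 to 61.4 against 44.7 to 61.2). At ranks 251 to 1000 they do not (0.181 to 33.9 against 34.9 to 44.1), and beyond rank 1000 they do (7.99 to 39.7 against 21.2 to 24.3). The letters were found in 4 of 13 ribosomal protein gene peaks of ranks 1 to 250 (30.8%) against 53.0% of 149, in 1 of 14 of ranks 251 to 1000 (7.14%) against 39.4% of 459, and in 6 of 29 beyond (20.7%) against 22.7% of 2926. The ribosomal protein genes with the letters inside rank 1000 were rps-1, rpl-11.2, rpl-41.1 with rpl-41.2, rpl-27 and rpl-24.2.

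AGACGCAG, a longer word that does not contain GAGAGA, was found in 2 of 56 ribosomal protein gene peaks (3.57%, 0.436 to 12.3). It was in 7.44% of other promoter peaks. The 2 peaks of the set were the shared peak of rpl-41.1 with rpl-41.2 and that of rpl-21, and both held GAGAGA too. Among the 1000 strongest it was in 1 of 27 (3.70%, 0.0937 to 18.97), against 15.6% of 608 (12.8 to 18.8), with overlapping intervals, and with at most 1 mismatch in 5 of 27 (18.5%) against 35.4%. The base composition was similar, with a median GC content of 41.3% for ribosomal protein gene peaks and 43.8% for other promoter peaks of the 1000 strongest. In windows of 201 bp centred 289 bp upstream of the start, whether or not a peak was there, GAGAGA was in 15% of the 80 ribosomal protein genes and 12.1% of all genes. AGACGCAG was in 5.0% and 1.93%. In these windows, then, neither share was below that of all genes. Whether the differences between strong peaks go with rank, base composition or reads was not tested.

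Other letters recurred in the set. All 8-base words in the 201 bp around the summits were ranked by the difference between the share in ribosomal protein gene peaks and that in other promoter peaks, so the words were chosen on these values and have no test. GCGAGACC was in 14 of 56 ribosomal protein gene peaks (25%), against 2.01% of other promoter peaks, among them those of rpl-41.1 with rpl-41.2, rpl-27, rpl-17, rpl-6 and rpl-18. ACCGTAGT was in 12 (21.4%), against 0.509%, among them those of rps-1, rpl-15, rpl-11.2 and rpl-43. GGCCTAAA was in 12 (21.4%), against 0.566%, among them those of rpl-15, rpl-11.2, rpl-43 and rpl-1. The printed windows show them: ACCGTAGT and GGCCTAAA stand together at rpl-15, and ACCGTAGT and GCGAGACC at rpl-6. At least 1 of the 3 words was in 28 of 56 ribosomal protein gene peaks and in 106 of 3534 others (3.0%), and 2 of them were in 10 and 3 peaks. The next words were CGAAAAAA, in 15 (26.8%) against 7.05%, and TACGGTAA, in 12 (21.4%) against 1.22%. TACGGTAA overlaps the reverse complement of ACCGTAGT in 6 letters. In the printed window of rps-1 it shares those 6 letters with the marked ACTACGGT. It stands unmarked in the printed windows of rpl-20 and rpl-21.

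All of these words but TACGGTAA were also found upstream of ribosomal protein genes with no candidate. In the windows centred 289 bp upstream of the 21 ribosomal protein genes with no candidate, GCGAGACC was found at 8 (38.1%, 18.1 to 61.6) and GGCCTAAA at 4 (19.05%, 5.45 to 41.9), close to or above their shares in the peaks. ACCGTAGT was found at 1 (4.76%, 0.121 to 23.8). TACGGTAA was found at 0 (0.0 to 16.1) and CGAAAAAA at 3 (14.3%, 3.05 to 36.3). Their shares in the peaks, on which these words were chosen, were 21.4% and 26.8%. In the upstream windows of all protein-coding genes the shares of TACGGTAA and CGAAAAAA were 0.841% and 7.57%. Over the windows of all 80 genes the shares of GCGAGACC, GGCCTAAA and ACCGTAGT were 25%, 21.2% and 12.5%. Those of all protein-coding genes were 1.16%, 0.746% and 0.746%. The windows of all 80 genes include stretches of the peaks on which the words were chosen. GCGAGACC and GGCCTAAA were thus found upstream of ribosomal protein genes with and without a candidate. Whether any of the words goes with a peak was not tested. The windows are centred on a position taken from the peaks, and the share at genes without one need not be taken at the same place.

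Other genes of translation were looked at by name lists. Of 43 translation factor genes, 24 had a candidate (55.8%), 8 one of the 1000 strongest (18.6%) and 7 a candidate of both replicates (16.3%), against 18.1%, 3.95% and 2.09% of all genes. The strong ones were iff-2, which encodes eIF5A (rank 6), the elongation factor genes eef-1A.2 (rank 28), eef-1B.1 (rank 73), eef-1G (rank 133), eef-2 (rank 139) and eef-1A.1 (rank 148), pab-2 (rank 637), which encodes a poly(A)-binding protein, and eif-3.B (rank 886). Their summits lay 397 bp upstream at eef-1A.1, 367 bp at eef-1A.2, 246 bp at eif-3.B, 122 bp at iff-2, 90 bp at pab-2, 31 bp at eef-1G and 18 bp at eef-1B.1, and 11 bp downstream at eef-2. Of 18 ribosome assembly genes listed by name, 16 were found in the annotation. Of these 16, 10 had a candidate (62.5%, against 18.1%) and 4 a candidate of both replicates (25%, against 2.09%). One of the 1000 strongest lay at 4 (25%, against 3.95%), led by nol-56 (rank 78), a nucleolar protein gene, and pro-1 (rank 228). nog-1 (rank 664) and fib-1 (rank 955), which encodes fibrillarin, followed.

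Lists of the mitochondrial ribosome and of tRNA charging had smaller shares than these, with a share above that of all genes for any candidate. Of 66 mitochondrial ribosomal protein genes, 26 had a candidate (39.4%), against 18.1% of all genes, and 3 one of the 1000 strongest (4.55%), against 3.95%. These 3 were mrpl-32 (rank 336), mrpl-12 (rank 839) and mrps-7 (rank 842). A candidate of both replicates was found at 1 of the 66 (1.52%), against 2.09% of all genes. Of 32 aminoacyl-tRNA synthetase genes, 12 had a candidate (37.5%, against 18.1%) and 2 one of the 1000 strongest (6.25%, against 3.95%), ears-2 (rank 272) and kars-1 (rank 798), and none had a candidate of both replicates. The 4 RNA polymerase I genes had no candidate.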

How the data were processed

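Peak lists of EOR-1 ChIP-seq in L3 larvae, in the narrowPeak format on build ce11, were used as the authors deposited them. Each replicate list, per the file lists, was called against 2 control entries, the pooled list came from the reads of both replicates, and the thresholded list was made from these 3 by IDR. Not given in the sources used here are the aligner, peak caller, versions and IDR threshold. Peaks were ranked within a list by the signal value the authors deposited, whose normalization is not stated. There are no read counts, so depth is unknown.

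Summits were set against protein-coding transcript starts of Ensembl release 115 (WBcel235, which is ce11) with a reach of 1000 bp, and summits of 2 lists were shared within 200 bp. Sequence came from the RefSeq copy of that assembly, searched within 100 bp of the summit. Coordinates are 1-based. Intervals are exact (Clopper-Pearson, 95%) and cover counting of peaks only. The functions were tested on simulated data. Python 3.11.15, pandas 2.3.3, numpy 2.4.6 and scipy 1.17.1 were used. Replicates were numbered from the labels.

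Genes were named by rule: those with one of the 1000 strongest peaks or a candidate in both replicates, those next to rank 1000, the 4 genes added by name, numbered paralogs and genes with no candidate. Others named with motif letters or distances were chosen after their values were seen. The members and lists were chosen with earlier results of these data known. No test was made, because there is 1 group. Alternatives covered the reach, the assignment, membership, single replicates and motif windows. The ce10 lists and the controls were not used here.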

Additional observations from a re-analysis of the deposited data

How the results depend on the processing

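Of 58 alternative values, 49 stayed within 1.5 times of the value reported or, for shares, within its exact interval, 9 moved further and 0 reversed. Counting a peak only for the gene with the nearest start gave 33 genes with a candidate in place of 59, 17 with one of the 1000 strongest in place of 30, and 11 with a candidate of both replicates in place of 20. Single replicate lists gave 36 to 38 genes with a candidate, 36 without replicate 2 and 38 without replicate 1, and 18 to 20 genes whose own start was nearest, in place of 30. These lists hold fewer peaks than the pooled one. The thresholded list alone left 2 genes under either count. AGACGCAG with at most 1 mismatch was in 17.9% of peaks in place of 3.57%. A reach of 500 bp gave 52 genes with a candidate, and doubling the reach gave 66. Adding the letter-suffixed names rpl-7A and rpl-36.A gave 61. Counts over all genes for the thresholded list and the other reaches are not given here. The changes are therefore not read as particular to the set. No paired analysis was possible because there is 1 group. Candidates include background entries, 2 replicates give no error for a rank, and unknown depth means that a missing candidate cannot be read as missing binding.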
